A study of Mus musculus with 43 samples.

Results

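The genes described here are 41 members of the ATF4 or integrated stress response programme, measured by bulk RNA sequencing in mouse colon organoids and colon fibroblasts. They were taken from both expression tables by gene symbol alone, and all 41 were found among the 52636 genes listed in each table. They fall into 13 stress regulators, 12 enzymes of serine, one-carbon and other amino acid synthesis, 8 amino acid transporters and 8 tRNA synthetases.

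Organoids are epithelial structures grown in Matrigel with Wnt3a, EGF, Noggin, Rspondin1 and N-acetylcysteine. Colonoids (Apc wild-type, lines M41, M40 and M1) and tumoroids (Apc-deficient, lines F11, M3 and M14) each came from a single mouse, 2 months old. All these mice carried a tamoxifen-inducible Cre under the villin promoter and received tamoxifen, and the tumoroid mice carried floxed Apc alleles. F11 was from a female and the other organoid lines from males. Organoids were cultured for 6 days with vehicle (0.5% DMSO), regorafenib at 4 µM or 8 µM, or 5-fluorouracil (5-FU) at 1 µM, which gave 8 groups of 3 libraries. Fibroblasts were wild-type C57B/6 colon lines, named M3, M3(2), M1(2) and M11. They were treated over 7 days with vehicle, regorafenib at 4 µM, autogramin-2 at 1 µM, or both drugs together (4 libraries each), or with regorafenib at 10 µM (3 libraries, without M11). Regorafenib is a multi-kinase inhibitor, 5-FU is a pyrimidine analogue that inhibits thymidylate synthase, and autogramin-2 inhibits GramD1A and with it autophagy. A line gave 1 library in each condition, so the spread given below is that between lines. Values within a group are listed in the order M41, M40, M1 for colonoids, F11, M3, M14 for tumoroids and M3, M3(2), M1(2), M11 for fibroblasts.

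In the integrated stress response, kinases that sense amino acid shortage, unfolded proteins, viral RNA or haem deficiency phosphorylate the initiation factor eIF2 alpha. Most translation then slows, while the mRNA of the transcription factor ATF4 is translated more. ATF4 pairs with other bZIP proteins, C/EBP factors among them, on composite C/EBP-ATF elements and drives genes for amino acid synthesis, amino acid import and tRNA charging, as well as regulators such as CHOP (Ddit3), TRIB3 and CHAC1 that feed back on the response. In the intestinal epithelium the programme is known to follow amino acid supply and the load of protein folding. Because ATF4 is controlled largely at translation, its mRNA is only part of its regulation.

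The composite element is shown first, since it is the sequence feature through which these genes are known to be linked. Of the 41 members, 33 were matched in the RefSeq promoter table (build GRCm38.p6), which gives a window of 300 bases for each start, 250 of them before it. The motif TGATGNAA was searched on both strands, and no other motif was searched. It was found in the window of 14 of the 33 members (42.4%), against 4.51% of the 27025 genes in the table. Counted only before the start, it was found in 11 of 33 (33.3%), against 3.91% of all genes. The shares by class were 5 of 13 stress regulators, 3 of 10 synthesis enzymes, 2 of 5 transporters and 4 of 5 tRNA synthetases. Aldh1l2, Cth, Slc7a5, Slc1a5, Slc7a3, Wars, Mars and Nars were not matched.

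The elements of the members described most fully below are printed with 10 bases on either side, read along the strand that carries TGATGNAA, with the 8 bases of the motif in capitals and their position in the genome.
Trib3, chr2:152344039-152344046: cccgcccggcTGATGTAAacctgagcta
Chac1, chr2:119351049-119351056: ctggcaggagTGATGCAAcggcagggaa
Vldlr, chr19:27216820-27216827: ctaggagcgcTGATGCAActattgctgc
Pck2, chr14:55540163-55540170: tgtaagatacTGATGTAActttgaaggc
Pycr1, chr11:120643844-120643851: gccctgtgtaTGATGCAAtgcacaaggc
Asns, chr6:7693225-7693232: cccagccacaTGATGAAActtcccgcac
Slc7a11, chr3:50443672-50443679: ctcatgtggcTGATGCAAacctggagaa
Slc7a11, chr3:50443653-50443660: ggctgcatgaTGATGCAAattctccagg
Slc7a11, the cystine importer, had a pair of elements on opposite strands, and in Trib3 the match lay just after the start.

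The promoters of 5 members that the results turn on are printed over the 250 bases before the RefSeq start, along the strand of the gene, with TGATGNAA or its reverse complement in capitals. Chac1, Slc7a11 and Pck2 hold the motif, while Psat1 and Mthfd2 do not hold these letters in this stretch; they are shown because they had the largest changes among the synthesis enzymes called for regorafenib.
Chac1, chr2:119350992-119351241, plus strand: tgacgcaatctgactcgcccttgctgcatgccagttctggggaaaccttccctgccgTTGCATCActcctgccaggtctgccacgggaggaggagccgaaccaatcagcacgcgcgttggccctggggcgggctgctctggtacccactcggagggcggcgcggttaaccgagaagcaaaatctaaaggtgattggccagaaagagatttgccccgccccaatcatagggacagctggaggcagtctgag
Slc7a11, chr3:50443614-50443863, minus strand: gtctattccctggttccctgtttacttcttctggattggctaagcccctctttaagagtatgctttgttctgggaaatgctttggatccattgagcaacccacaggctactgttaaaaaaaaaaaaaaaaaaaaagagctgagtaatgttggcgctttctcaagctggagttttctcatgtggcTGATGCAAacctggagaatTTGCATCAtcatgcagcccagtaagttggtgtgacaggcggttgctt
Pck2, chr14:55540016-55540265, plus strand: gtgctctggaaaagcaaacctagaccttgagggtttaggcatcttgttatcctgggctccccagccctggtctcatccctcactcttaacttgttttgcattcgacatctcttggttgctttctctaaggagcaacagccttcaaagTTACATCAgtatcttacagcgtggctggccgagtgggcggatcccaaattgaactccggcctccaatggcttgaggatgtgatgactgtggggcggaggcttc
Psat1, chr19:15925060-15925309, minus strand: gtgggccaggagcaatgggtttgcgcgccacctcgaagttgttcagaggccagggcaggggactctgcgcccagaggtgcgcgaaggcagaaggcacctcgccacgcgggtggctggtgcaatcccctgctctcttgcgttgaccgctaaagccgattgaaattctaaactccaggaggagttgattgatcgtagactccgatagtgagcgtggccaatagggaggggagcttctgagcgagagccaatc
Mthfd2, chr6:83317605-83317854, minus strand: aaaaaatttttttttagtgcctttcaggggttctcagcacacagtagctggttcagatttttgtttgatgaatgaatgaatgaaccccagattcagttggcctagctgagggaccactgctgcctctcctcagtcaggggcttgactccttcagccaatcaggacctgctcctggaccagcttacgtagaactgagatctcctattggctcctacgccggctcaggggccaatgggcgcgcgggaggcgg
Called members did not hold the motif in a larger share than the rest. It was found in 4 of 12 members called for regorafenib and in 10 of 21 not called, and in 7 of 21 called for 5-FU and 7 of 12 not called.

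Levels are given in CP20M, the reads of a gene scaled to 20000000 reads per library, so that values of different genes cannot be ranked. The study describes the unit as per kilobase of transcript, but the values of a library summed to 20006722 to 20019739 and 1 read was worth the same for every gene, so they were read as not divided by length. Library depth, recovered from these steps, was 512600 to 22367612 reads in organoids, the highest only approximate, and 7949978 to 12825931 reads in fibroblasts. The library of colonoid line M41 with 4 µM regorafenib stood apart: it held 512600 reads, the next lowest organoid library 4371837, so that 1 read was worth 39.0 CP20M, and 15.7% of its reads fell on rRNA-like genes, against at most 3.97% elsewhere in organoids. Apc itself was at 1542 to 4944 CP20M in colonoids and 3813 to 6032 CP20M in tumoroids, a gene total that includes exons outside the floxed part and so checks nothing, whereas Axin2, a Wnt target, was at 430 to 2521 and 4215 to 10756 CP20M and separated the genotypes in every library. The 3 tumoroid 5-FU libraries carry titles that call them colonoids and were placed by their genotype label; their Axin2 was at 4215 to 10756 CP20M, against 1475 to 2521 CP20M in the colonoid 5-FU libraries. A fibroblast library of line M3 was placed by its library name. The 7 epithelial markers summed to 110217 to 356695 CP20M in organoids and the 7 fibroblast markers to 12 to 119 CP20M, with Lum at 0 in every group; in fibroblasts these sums were 187 to 1538 and 110024 to 185056 CP20M. Endothelial markers were high in fibroblast line M3(2), at 6145 to 25153 CP20M against 868 to 7196 CP20M in the other lines.

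Together the 41 members took 0.760%, 0.466% and 0.729% of the reads of the vehicle colonoids and 0.741% to 1.06% of those of the vehicle tumoroids. With regorafenib the range over both genotypes was 0.516% to 0.719%, and with 5-FU 0.432% to 0.560%. Fibroblasts ranged from 0.292% to 0.487% over all conditions. Colonoid line M40 was unlike the other organoid lines: its vehicle library had the lowest value of the 6 vehicle libraries for 34 of 41 members. Proliferation markers summed to 1766, 12197 and 2904 CP20M in the vehicle colonoids and 32503, 1291 and 1929 CP20M in the vehicle tumoroids. Their part in the members' levels was not tested. In bulk samples, fewer cells of a type and less RNA per cell cannot be told apart.

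**Figure D1:**
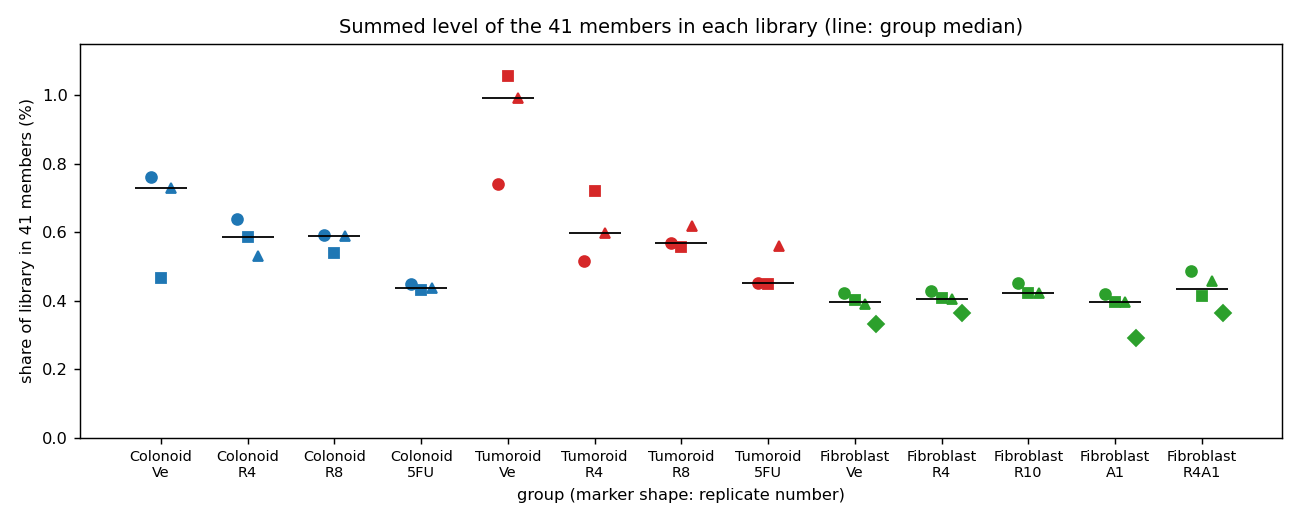
Share of each library's reads (%) that fell on the 41 members, by group, with 1 point per library, marker shape for the replicate number and a line at the group median. Vehicle tumoroids are the highest group, 5-FU groups are the lowest organoid groups, and the M40 vehicle colonoids (square, 0.466%) lie under the other vehicle organoids.

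Differences are log2 fold changes of CP20M + 20, tested with limma over all genes of a table (11562 genes in organoids, where all 41 members passed the filter on low values, and 11032 in fibroblasts, where 39 passed and Adm2 and Slc7a3 did not). A gene is called, and said to have risen or fallen, where its adjusted p was under 0.05 and it changed at least 1.5-fold. Counts from fits without a line or on fewer groups are given without the share of all genes called in them. They are therefore not read as results about the members. Such fits hold fewer libraries, and whether calls were lost through that or through the line was not tested. The pseudocount of 20 shrinks the changes of low genes such as Adm2, Cth and Slc7a3. These genes also read 0 in the low-depth library, where 3 reads would be 117 CP20M. Comparisons that use that library may therefore overstate their changes.

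The first comparison asked how the programme differed between vehicle-treated tumoroids and colonoids. Tumoroids had more mRNA of the serine and one-carbon enzymes Phgdh and Shmt2, of the leucine transporter Slc7a5 and of the methionyl-tRNA synthetase Mars, with differences of 1.61-fold to 3.23-fold. These 4 of 41 members were called higher and none lower, while 2.06% of all genes tested were called, 0.969% higher and 1.09% lower. The median over the members was 0.75 on the log2 scale, against 0.06 over all genes, and 38 of 41 were positive.

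Slc7a5, the light chain of the LAT1 exchanger of large neutral amino acids, was at 2334, 1052 and 2958 CP20M in the 3 colonoid lines and 5643, 6783 and 6566 CP20M in the 3 tumoroid lines (1.69 ± 0.38 (SE), limma adjusted p = 0.0243). Phgdh, the first enzyme of serine synthesis from glycolysis, was at 1931, 1195 and 2790 CP20M and 4445, 5417 and 3993 CP20M (1.29 ± 0.24 (SE), limma adjusted p = 0.00841). Shmt2, which moves the one-carbon unit of serine to folate in mitochondria, was at 1782, 1527 and 2514 CP20M and 5967, 4023 and 4059 CP20M (1.27 ± 0.24 (SE), limma adjusted p = 0.00906). In each of these genes every tumoroid library lay above every colonoid library. Mars was at 2689, 1781 and 2501 CP20M and 3282, 4378 and 3522 CP20M (0.69 ± 0.17 (SE), limma adjusted p = 0.0451), again without overlap. The libraries of 16 members were wholly higher in tumoroids and those of 1, Nupr1, wholly lower, against 15.9% and 10.7% of all genes. Reads of Phgdh are uncertain, since 89.5% of its longest transcript is shared at 95% identity or more with 11 other annotated genes. Phgdh-ps1 is among these. Iars shares 49.9% of its longest transcript in this way with Gm4849, and Psph 26.1% with Cct6a. Exons of Mars overlap those of Ddit3, and exons of Shmt2 those of Ndufa4l2, on the opposite strand. Such reads cannot be told apart unless strand was used in counting. Among members called below, Psph, Cebpg, Aldh1l2 and Pck2 also have exon overlaps on the opposite strand.

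Atf4 itself did not separate the genotypes, at 10564, 4071 and 7300 CP20M in the 3 colonoid lines and 6503, 10496 and 10285 CP20M in the 3 tumoroid lines (0.39 ± 0.29 (SE), limma adjusted p = 0.563). Ddit3, which encodes the pro-apoptotic factor CHOP, was at 811, 357 and 431 CP20M and 304, 1216 and 792 CP20M (0.40 ± 0.37 (SE), limma adjusted p = 0.655). Some members with a large difference varied widely between lines: Aldh1l2, the mitochondrial formyl-folate dehydrogenase, was at 750, 27 and 837 CP20M in colonoids and at 807, 2391 and 2212 CP20M in tumoroids and was not called (2.39 ± 1.04 (SE), limma adjusted p = 0.248). Goblet markers, at 1572 to 19050 CP20M in vehicle colonoids and 64 to 412 CP20M in vehicle tumoroids, and absorptive markers, at 11353 to 16920 and 1427 to 5766 CP20M, moved with the genotype, and their part in these differences was not tested. The count changed with the libraries used: without colonoid line M40 no member was called, without tumoroid M3 1, without tumoroid M14 2, and without the low-depth library of M41 10. These fits hold fewer libraries, and why the count changed was not tested. A fit to the vehicle libraries alone called none.

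In fibroblasts with vehicle, values scaled in a separate table and set beside those of organoids with no test, Atf4 was at 2730, 2881, 2528 and 2117 CP20M, under all 6 vehicle organoid libraries. Atf5, an ATF4 relative that is also controlled by translation, was at 6608, 4983, 5159 and 4091 CP20M in fibroblasts, 3166, 539 and 2608 CP20M in colonoids and 1824, 5120 and 3173 CP20M in tumoroids. Adm2 and Slc7a3, the peptide adrenomedullin 2 and an arginine transporter, reached at most 22 and 18 CP20M in vehicle fibroblasts. Slc1a5, the glutamine transporter ASCT2, was at 206, 225, 277 and 277 CP20M in fibroblasts against 1574 to 4858 (median 2718.5) CP20M in vehicle organoids.

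Regorafenib was next compared with vehicle over both genotypes (12 against 6 libraries). With the drug, 15 of 41 members fell and none rose, while 16.9% of all genes were called, 7.65% higher and 9.2% lower. Atf4 and Ddit3 fell together with the regulators Chac1, Trib3, Adm2, Atf5 and Cebpg, the synthesis enzymes Psat1, Mthfd2, Pycr1, Asns and Shmt2, the transporters Slc7a5 and Slc1a5 and the synthetase Wars. The median over the members was -0.61, against -0.11 over all genes, and 37 of 41 were negative. Their log2 fold changes ran from -1.88 (Adm2) to 0.27 (Nupr1).

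**Figure D2:**
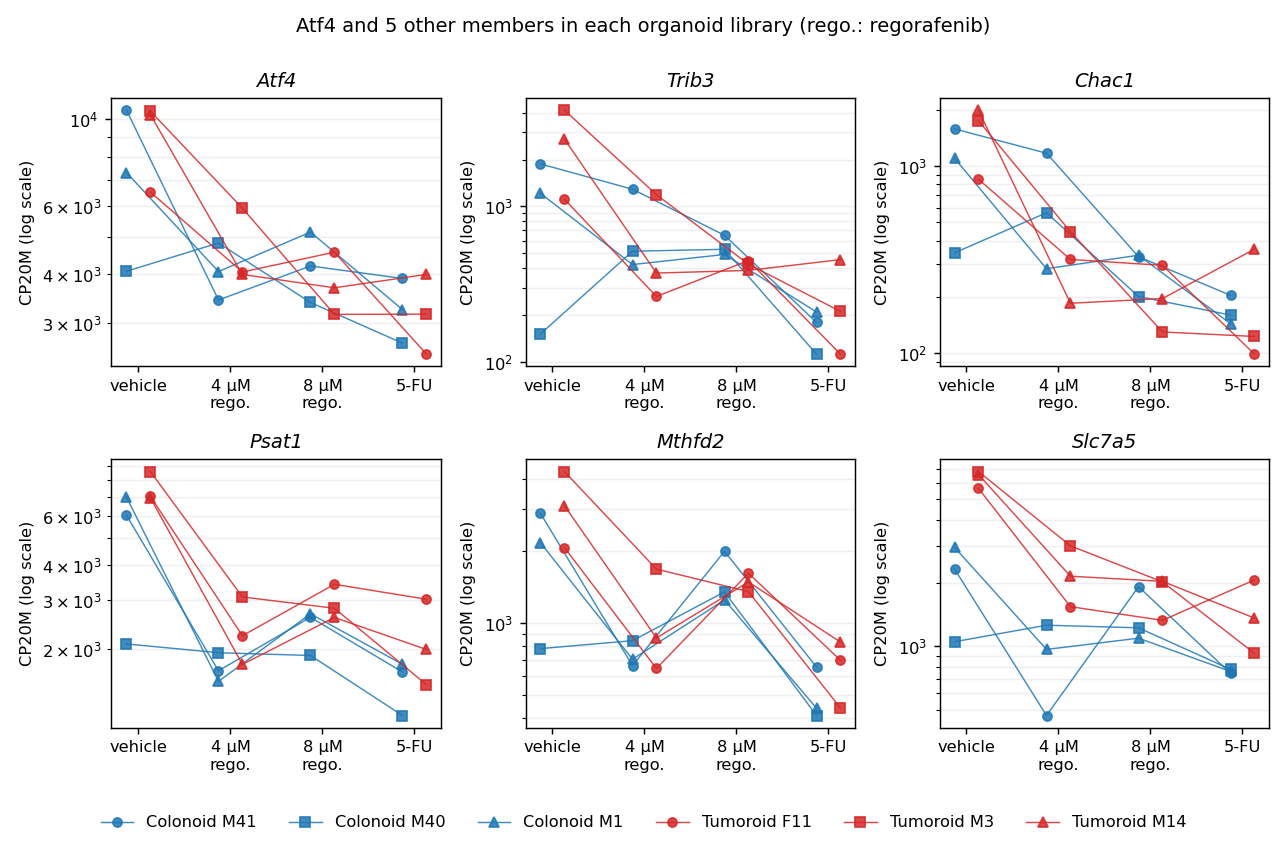
CP20M (log axis) of Atf4, Trib3, Chac1, Psat1, Mthfd2 and Slc7a5 in each organoid library, with lines that join the libraries of 1 cell line over vehicle, 4 µM and 8 µM regorafenib and 5-FU (blue colonoids, red tumoroids). Vehicle libraries are the highest in most lines, and colonoid M40 (blue squares) starts low, with Trib3 at 151 CP20M.

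Among stress regulators, 7 of 13 fell. Atf4 ranged over 4071 to 10564 (median 8792.5) CP20M with vehicle and 3154 to 5912 (median 4058) CP20M with regorafenib (-0.91 ± 0.18 (SE), limma adjusted p = 0.000893), and the groups overlapped only through the M40 vehicle library. Taking the mean log2 value of both doses in a line, it was lower in 6 of 6 lines, but M40 hardly differed, at 4071 CP20M with vehicle and 4812 and 3384 CP20M with regorafenib. Chac1, an enzyme that degrades glutathione, ranged over 344 to 1989 (median 1340) CP20M with vehicle and 130 to 1171 (median 306) CP20M with regorafenib (-1.75 ± 0.34 (SE), limma adjusted p = 0.000748), lower in 6 of 6 lines, with M40 again at either side of its vehicle value (344 CP20M, then 563 and 201 CP20M). Adm2 ranged over 12 to 706 (median 322.5) CP20M and 0 to 285 (median 58.5) CP20M (-1.88 ± 0.48 (SE), limma adjusted p = 0.00651), with its 0 in the low-depth library, where 3 reads would be 117 CP20M. It passed the filter mainly through vehicle libraries, the group where it was high. Trib3, a pseudokinase that binds ATF4 and AKT, ranged over 151 to 4156 (median 1542) CP20M and 263 to 1288 (median 469) CP20M (-1.27 ± 0.44 (SE), limma adjusted p = 0.0342). Adm2 and Trib3 overlapped between the groups and were lower in 5 of 6 lines, all but M40.

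Atf5 ranged over 539 to 5120 (median 2887) CP20M with vehicle and 611 to 1656 (median 1079.5) CP20M with regorafenib (-1.14 ± 0.31 (SE), limma adjusted p = 0.0103), lower in 5 of 6 lines. Its exons overlap those of Nup62 and Il4i1 on the opposite strand. Ddit3 ranged over 304 to 1216 (median 611.5) CP20M and 219 to 519 (median 392) CP20M (-0.68 ± 0.23 (SE), limma adjusted p = 0.0309) and was lower in 4 of 6 lines, the weakest agreement among the called regulators. Cebpg, a C/EBP partner of ATF4, fell by 0.82 (SE 0.14) with no overlap between vehicle and regorafenib libraries (limma adjusted p = 0.000191). The regulators that were not called ran from -0.63 (Stc2) to 0.27 (Nupr1). Ddit4, which encodes the mTORC1 inhibitor REDD1, was at 0.08, and Sesn2, a sestrin that senses leucine, at -0.19. Vldlr, a lipoprotein receptor, passed the adjusted p (limma, 0.00729) but at -0.57 not the minimum fold.

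Of the synthesis enzymes 5 of 12 fell. Psat1, the second enzyme of serine synthesis, ranged over 2091 to 8611 (median 6959.5) CP20M with vehicle and 1538 to 3412 (median 2418) CP20M with regorafenib (-1.33 ± 0.21 (SE), limma adjusted p = 0.000105) and was lower in 6 of 6 lines. Mthfd2, which oxidises methylene-folate in mitochondria, ranged over 782 to 4291 (median 2515) CP20M and 646 to 1993 (median 1299) CP20M (a 1.99-fold difference, SE 0.24 on the log2 scale, limma adjusted p = 0.00472). Pycr1, the last enzyme of proline synthesis, ranged over 108 to 566 (median 428) CP20M and 118 to 469 (median 194) CP20M (-0.76 ± 0.25 (SE), limma adjusted p = 0.0276). In Mthfd2 and Pycr1, 5 of 6 lines were lower and M40 was not. Asns, asparagine synthetase, ranged over 2171 to 8196 (median 5617) CP20M and 1327 to 4416 (median 3441) CP20M (-0.73 ± 0.20 (SE), limma adjusted p = 0.0108), and Shmt2 had a log2 fold change of -0.66 ± 0.15 (SE), limma adjusted p = 0.00214. In M40 Asns was higher with the drug, at 2171 CP20M with vehicle and 3445 and 4158 CP20M with regorafenib. Not every step of serine synthesis moved: Phgdh, which acts just before Psat1 in serine synthesis, was at 0.27.

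Among transporters and synthetases, 2 of 8 and 1 of 8 fell. Slc7a5 ranged over 1052 to 6783 (median 4300.5) CP20M with vehicle and 469 to 3006 (median 1437) CP20M with regorafenib (-1.27 ± 0.23 (SE), limma adjusted p = 0.00048). In M40 it was not lower, at 1052 CP20M with vehicle and 1261 and 1225 CP20M with regorafenib. Slc1a5 ranged over 1574 to 4858 (median 2718.5) CP20M and 879 to 2502 (median 1061.5) CP20M (-1.13 ± 0.19 (SE), limma adjusted p = 0.000208), lower in 6 of 6 lines. Slc3a2, the heavy chain that carries Slc7a5 to the membrane, was not called at -0.25, and Slc7a11 stood at -0.40. Wars, the tryptophanyl-tRNA synthetase, stood apart from its class: it ranged over 6415 to 12074 (median 8254) CP20M with vehicle and 1678 to 6333 (median 3672) CP20M with regorafenib (-1.27 ± 0.17 (SE), limma adjusted p = 2.04e-05) with no overlap. The other 7 synthetases lay between -0.22 (Mars) and 0.14 (Iars). Only Wars and Cebpg of the 41 members had no overlap between the groups, against 2.74% of all genes that were wholly lower.

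With the line as a block, which compares each line with itself, Stc2 (-0.63, adjusted p = 0.0066), Aldh1l2 (-1.13, adjusted p = 0.024) and Pck2 (-0.76, adjusted p = 0.0154; all limma) were called as well. Goblet and absorptive markers moved with the drug in colonoids, from 1572 to 19050 and 11353 to 16920 CP20M with vehicle to 68 to 197 and 62 to 1056 CP20M at 8 µM, and their part in the members' fall was not tested. In tumoroids the absorptive sum was 1427 to 5766 CP20M with vehicle, 169 to 224 CP20M at 4 µM and 133 to 271 CP20M at 8 µM, and the goblet sum 64 to 412, 96 to 173 and 73 to 230 CP20M; their part was not tested there either. Leukocyte markers summed to 427 to 573 CP20M with vehicle and 596 to 3247 CP20M at 8 µM, higher in every line. Of the 7 listed, Adgre1, C1qb and Lyz2 were at 0 in all 8 µM libraries and also in all vehicle tumoroids, so others carried the rise. Proliferation markers were at 1766, 12197 and 2904 CP20M in vehicle colonoids and 1179, 1683 and 2011 CP20M at 8 µM. In tumoroids they were at 32503, 1291 and 1929 CP20M and 6251, 7520 and 5087 CP20M. The part of either list was not tested.

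Within each genotype the calls differed in number. In tumoroids 17 of 41 members fell and none rose (7.78% of all genes called, 4.51% higher and 3.27% lower), by a median of -0.78 against -0.05 over all genes. In colonoids 5 fell and 1 rose (14.6% called, 5.67% higher and 8.9% lower), with a median of -0.23 against -0.15. Libraries of 19 members were wholly lower with regorafenib in tumoroids and of 3 in colonoids, against 12% and 12.2% of all genes.

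In tumoroids Chac1 was at 851, 1748 and 1989 CP20M with vehicle, 317, 446 and 185 CP20M at 4 µM and 295, 130 and 196 CP20M at 8 µM (-2.47 ± 0.48 (SE), limma adjusted p = 0.00335). Trib3 was at 1111, 4156 and 2706 CP20M, 263, 1188 and 372 CP20M and 448, 424 and 387 CP20M (-2.31 ± 0.62 (SE), limma adjusted p = 0.0233). Atf4 was at 6503, 10496 and 10285 CP20M, 4053, 5912 and 3994 CP20M and 4557, 3154 and 3691 CP20M (-1.10 ± 0.25 (SE), limma adjusted p = 0.0103). Every vehicle library was above every regorafenib library for Chac1 and Atf4, while 1 regorafenib library of line M3 overlapped for Trib3. Ddit3 was at 304, 1216 and 792 CP20M, 219, 414 and 340 CP20M and 236, 235 and 329 CP20M (-1.16 ± 0.32 (SE), limma adjusted p = 0.0278), and was lower in 3 of 3 lines. Slc7a5, at 5643, 6783 and 6566 CP20M with vehicle, was at 1544, 3006 and 2156 CP20M and 1330, 2027 and 2038 CP20M (-1.68 ± 0.33 (SE), limma adjusted p = 0.00343), also without overlap.

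The other members that fell in tumoroids were Atf5, Adm2, Cebpg, Psat1, Psph, Shmt2, Mthfd2, Asns, Slc3a2, Slc1a5, Slc38a2 and Wars, with log2 fold changes from -0.70 (Slc38a2) to -2.40 (Adm2). The block added Aldh1l2 (-2.19, adjusted p = 0.00883), Pck2 (-1.30, adjusted p = 0.0117), Pycr1 (-1.04, adjusted p = 0.0179), Slc7a1 (-0.70, adjusted p = 0.0467) and Slc7a3 (-1.67, adjusted p = 0.0317; all limma). In fits without 1 tumoroid line, which hold fewer libraries, 10 members were called without F11, 5 without M3 and 1 without M14. The share of all genes called in these fits is not given.

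In colonoids, Wars was at 8325, 6415 and 8183 CP20M with vehicle, 1678, 4086 and 3302 CP20M at 4 µM and 2553, 3132 and 3738 CP20M at 8 µM (-1.35 ± 0.24 (SE), limma adjusted p = 0.000733), with no overlap. Psat1 was at 6015, 2091 and 6979 CP20M, 1678, 1946 and 1538 CP20M and 2602, 1902 and 2677 CP20M (-1.14 ± 0.29 (SE), limma adjusted p = 0.0119), where the vehicle library of M40 lay among the treated ones. Vldlr (-0.71), Cebpg (-0.85) and Slc1a5 (-0.87) fell as well. Phgdh was the only member that rose: it was at 1931, 1195 and 2790 CP20M, 3395, 2343 and 2130 CP20M and 3427, 3986 and 3903 CP20M (0.73 ± 0.21 (SE), limma adjusted p = 0.019), higher in 3 of 3 lines. Atf4 was at 10564, 4071 and 7300 CP20M, 3434, 4812 and 4063 CP20M and 4200, 3384 and 5133 CP20M; it was not called (-0.72 ± 0.25 (SE), limma adjusted p = 0.0557), but was with the block (-0.72, adjusted p = 0.0381; limma). Ddit3 was at 811, 357 and 431 CP20M, 391, 519 and 484 CP20M and 393, 424 and 417 CP20M (-0.19 ± 0.32 (SE), limma adjusted p = 0.716). Without line M41, which holds the low-depth library, 3 members were called in colonoids, and in a fit to colonoid vehicle and regorafenib libraries alone 1 was.

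**Figure D3:**
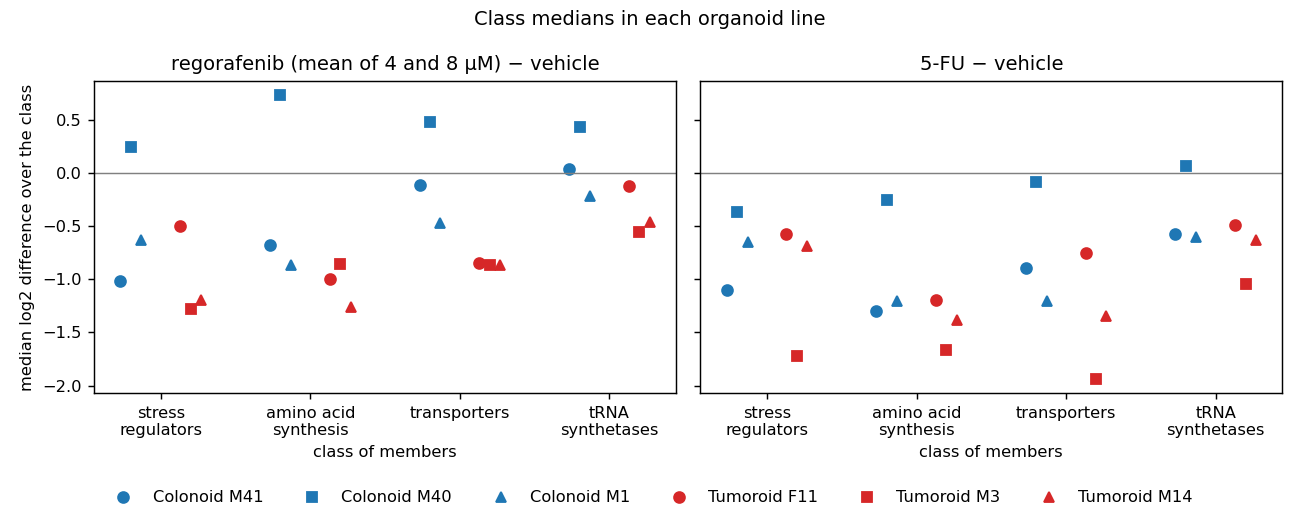
Median log2 difference from vehicle over the members of each class, 1 point per organoid line, for regorafenib (mean of 4 µM and 8 µM, left) and 5-FU (right). Colonoid M40 (blue squares) lies above 0 in every class with regorafenib, while the tumoroid lines (red) lie below 0 in every class with either drug.

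The lines differed in this response. The median difference over the 41 members was -0.34 in M41, 0.40 in M40, -0.59 in M1, -0.67 in F11, -0.74 in M3 and -0.98 in M14. Members lower than in the same line's vehicle numbered 30, 11, 34, 36, 40 and 40. M40, where most members were higher, is the line whose vehicle library was low for 34 members. Without M40, 21 members were called over both genotypes. The share of all genes called in that fit is not given, so this count is not a result about the members.

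The difference between the genotypes in the response to regorafenib was tested directly. None of the 41 members was called, by limma or by edgeR on the recovered reads (0% of all genes called in limma). In limma 10 members had an unadjusted p under 0.05. The share of all genes under that p was not taken, here or for the like counts below. These counts are therefore not read as results about the members. The tumoroid minus colonoid difference was negative in 37 of 41 members, with a median of -0.58 against 0.10 over all genes, and ran from -2.13 (Aldh1l2) to 0.42 (Nupr1). The smallest adjusted p was 0.997 in limma. The larger count of calls in tumoroids was therefore not shown to be a larger response.

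The 8 µM and 4 µM doses were compared over both genotypes (6 against 6 libraries). No member was called by limma, and 0.848% of all genes were; edgeR called 1 member, and 9 members had an unadjusted p under 0.05 in limma. Cth, which makes cysteine from cystathionine, was at 0, 119 and 79 CP20M at 4 µM and 527, 381 and 238 CP20M at 8 µM in colonoids, and at 198, 413 and 115 CP20M and 371, 469 and 312 CP20M in tumoroids (1.67 ± 0.43 (SE), limma adjusted p = 0.0621). It was higher at 8 µM in 6 of 6 lines and was called with the block (1.67, adjusted p = 0.0364; limma), as was Slc38a2, the SNAT2 transporter, in the other direction (-0.62, adjusted p = 0.0263; limma). The 0 of Cth lies in the low-depth library of M41, where 3 reads would be 117 CP20M. That line also had its widest gap between doses, 0 against 527 CP20M, so the size of its change leans on this library. Of the 12 synthesis enzymes, Mthfd2 (0.80), Aldh18a1 (0.64), Asns (0.52) and Phgdh (0.50) were higher at 8 µM, without a call. Chac1 stood at -0.77 and Atf4 at -0.12 (SE 0.21).

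The response to 5-FU was compared with the same 6 vehicle libraries. With 5-FU, 24 of 41 members fell and none rose, while 2.35% of all genes were called, 1.53% higher and 0.822% lower. By class 6 of 13 stress regulators, 9 of 12 synthesis enzymes, 7 of 8 transporters and 2 of 8 synthetases fell. The median over the members was -0.83, against -0.01 over all genes, and Sesn2 (0.20) was the 1 member with a positive value. As this comparison shares its vehicle libraries with that of regorafenib, the pair of results is not independent.

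Trib3 went from 151 to 4156 (median 1542) CP20M with vehicle to 112 to 454 (median 194) CP20M with 5-FU (-2.64 ± 0.51 (SE), limma adjusted p = 0.00945). Chac1 went from 344 to 1989 (median 1340) CP20M to 99 to 360 (median 152) CP20M (-2.59 ± 0.39 (SE), limma adjusted p = 0.00171). Adm2 went from 12 to 706 (median 322.5) CP20M to 4 to 86 (median 30.5) CP20M (-2.47 ± 0.56 (SE), limma adjusted p = 0.0212). These 3 regulators were lower in 6 of 6 lines, with overlap through the vehicle library of M40. Atf4 went from 4071 to 10564 (median 8792.5) CP20M to 2493 to 3996 (median 3201.5) CP20M (-1.28 ± 0.21 (SE), limma adjusted p = 0.00285), with no overlap. Ddit3 went from 304 to 1216 (median 611.5) CP20M to 198 to 356 (median 267) CP20M (-1.08 ± 0.26 (SE), limma adjusted p = 0.0299), and Atf5 changed by -1.83 ± 0.36 (SE), limma adjusted p = 0.0111. Ddit3, Atf4 and Atf5 were likewise lower in 6 of 6 lines. Cebpg, called for regorafenib, was at -0.54 with 5-FU and was not called (limma adjusted p = 0.0697).

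Of the synthesis enzymes, Mthfd2 went from 782 to 4291 (median 2515) CP20M to 411 to 833 (median 548.5) CP20M (-1.98 ± 0.28 (SE), limma adjusted p = 0.00103). Pck2, the mitochondrial phosphoenolpyruvate carboxykinase, went from 937 to 5298 (median 3781.5) CP20M to 556 to 1851 (median 890) CP20M (-1.74 ± 0.34 (SE), limma adjusted p = 0.0111). Psat1 went from 2091 to 8611 (median 6959.5) CP20M to 1162 to 3018 (median 1715) CP20M (-1.69 ± 0.24 (SE), limma adjusted p = 0.00103). All 3 were lower in 6 of 6 lines. Psph, Shmt2, Mthfd1l, Pycr1, Aldh18a1 and Asns fell, with values from -0.70 (Shmt2) to -1.15 (Psph), and the block added Aldh1l2 (-2.61, adjusted p = 0.00169; limma). Phgdh and Cth, at -0.57 and -1.41, were not called.

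Of the 8 transporters 7 fell. Slc7a5 went from 1052 to 6783 (median 4300.5) CP20M to 744 to 2069 (median 852) CP20M (-1.75 ± 0.27 (SE), limma adjusted p = 0.00177), and Slc7a11 from 1074 to 4029 (median 2074.5) CP20M to 419 to 1192 (median 816) CP20M (-1.33 ± 0.33 (SE), limma adjusted p = 0.0333). Slc1a5 went from 1574 to 4858 (median 2718.5) CP20M to 938 to 2386 (median 1220.5) CP20M (-1.06 ± 0.22 (SE), limma adjusted p = 0.0145). In these genes the groups overlapped, and Slc7a11 was lower in 5 of 6 lines. Slc38a2, at -0.74, had no overlap; it and Atf4 were the 2 members wholly lower, against 1.06% of all genes. Slc3a2, Slc7a1 and Slc1a4 fell, with values from -0.62 to -0.93, and Slc7a3 was added by the block (-1.79, adjusted p = 0.0135; limma). Among synthetases Nars went from 6449 to 10771 (median 8026) CP20M to 4620 to 6533 (median 5062) CP20M (-0.62 ± 0.15 (SE), limma adjusted p = 0.0337) and Sars from 4177 to 10743 (median 7263.5) CP20M to 3781 to 5606 (median 4704) CP20M (-0.60 ± 0.15 (SE), limma adjusted p = 0.0354); the other 6 ran from -0.57 (Mars, which passed the adjusted p but not the minimum fold) to -0.31 (Iars).

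Line by line, the median difference over the 41 members was -0.92 in M41, -0.23 in M40 and -0.89 in M1, the lines whose titles and genotype labels agree, and -0.69 in F11, -1.28 in M3 and -1.03 in M14. The count was lower without some lines: 4 members were called without colonoid M1, 4 without tumoroid M3 and 5 without tumoroid M14. These fits hold fewer libraries, and why the count was lower was not tested. The genotype difference in this response was called for none of the 41 members by limma or edgeR (0% of all genes in limma), 1 member (Sesn2) had an unadjusted p under 0.05, and 37 of 41 values were negative. Proliferation markers in colonoids were at 1766, 12197 and 2904 CP20M with vehicle and 6357, 6856 and 3915 CP20M with 5-FU. In tumoroids they were at 32503, 1291 and 1929 CP20M and 27207, 2862 and 2679 CP20M. They were lower with 5-FU in M40 and F11 and higher in the other lines. Goblet markers in colonoids were at 12719, 19050 and 1572 CP20M with vehicle and 4549, 7126 and 129 CP20M with 5-FU, lower in 3 of 3 lines, and absorptive markers at 11353 to 16920 and 6813 to 14693 CP20M. In tumoroids the goblet sums were 64 to 412 and 98 to 419 CP20M and the absorptive sums 1427 to 5766 and 2463 to 4372 CP20M. The part of these markers in the members' fall was not tested.

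Regorafenib and 5-FU were then compared directly, which uses no vehicle library. Here 7 members were higher with regorafenib and 1 lower, while 6.77% of all genes were called, 2.53% higher and 4.25% lower. The 7 were 5 synthesis enzymes, Phgdh, Psph, Mthfd2, Pck2 and Aldh18a1, and the transporters Slc7a11 and Slc1a4; the 1 lower was Wars. The median over the members was 0.43, against -0.09 over all genes.

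Phgdh ranged over 2130 to 5089 (median 3550.5) CP20M with regorafenib and 1282 to 3493 (median 1930.5) CP20M with 5-FU (0.84 ± 0.15 (SE), limma adjusted p = 0.00109). Mthfd2 ranged over 646 to 1993 (median 1299) CP20M and 411 to 833 (median 548.5) CP20M (0.98 ± 0.24 (SE), limma adjusted p = 0.0138), and Slc7a11 over 586 to 2968 (median 1557.5) CP20M and 419 to 1192 (median 816) CP20M (0.93 ± 0.29 (SE), limma adjusted p = 0.0432). All 7 were higher in 6 of 6 lines, although the pooled ranges overlap. Wars ranged over 1678 to 6333 (median 3672) CP20M with regorafenib and 5139 to 6778 (median 6040) CP20M with 5-FU (-0.75 ± 0.17 (SE), limma adjusted p = 0.0069) and was lower in 6 of 6 lines. Atf4 differed by 0.37 (SE 0.18) and Ddit3 by 0.41 (SE 0.23), neither called. With the block Trib3 (1.37, adjusted p = 0.0135), Aldh1l2 (1.48, adjusted p = 0.0102) and Slc7a3 (1.13, adjusted p = 0.0365; all limma) were added. Absorptive markers summed to 62 to 3403 CP20M with regorafenib and 2463 to 14693 CP20M with 5-FU over both genotypes, and their part in the difference was not tested. Without colonoid M1, 4 members were called, without F11 5, without M3 2 and without M14 3.

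**Figure D4:**
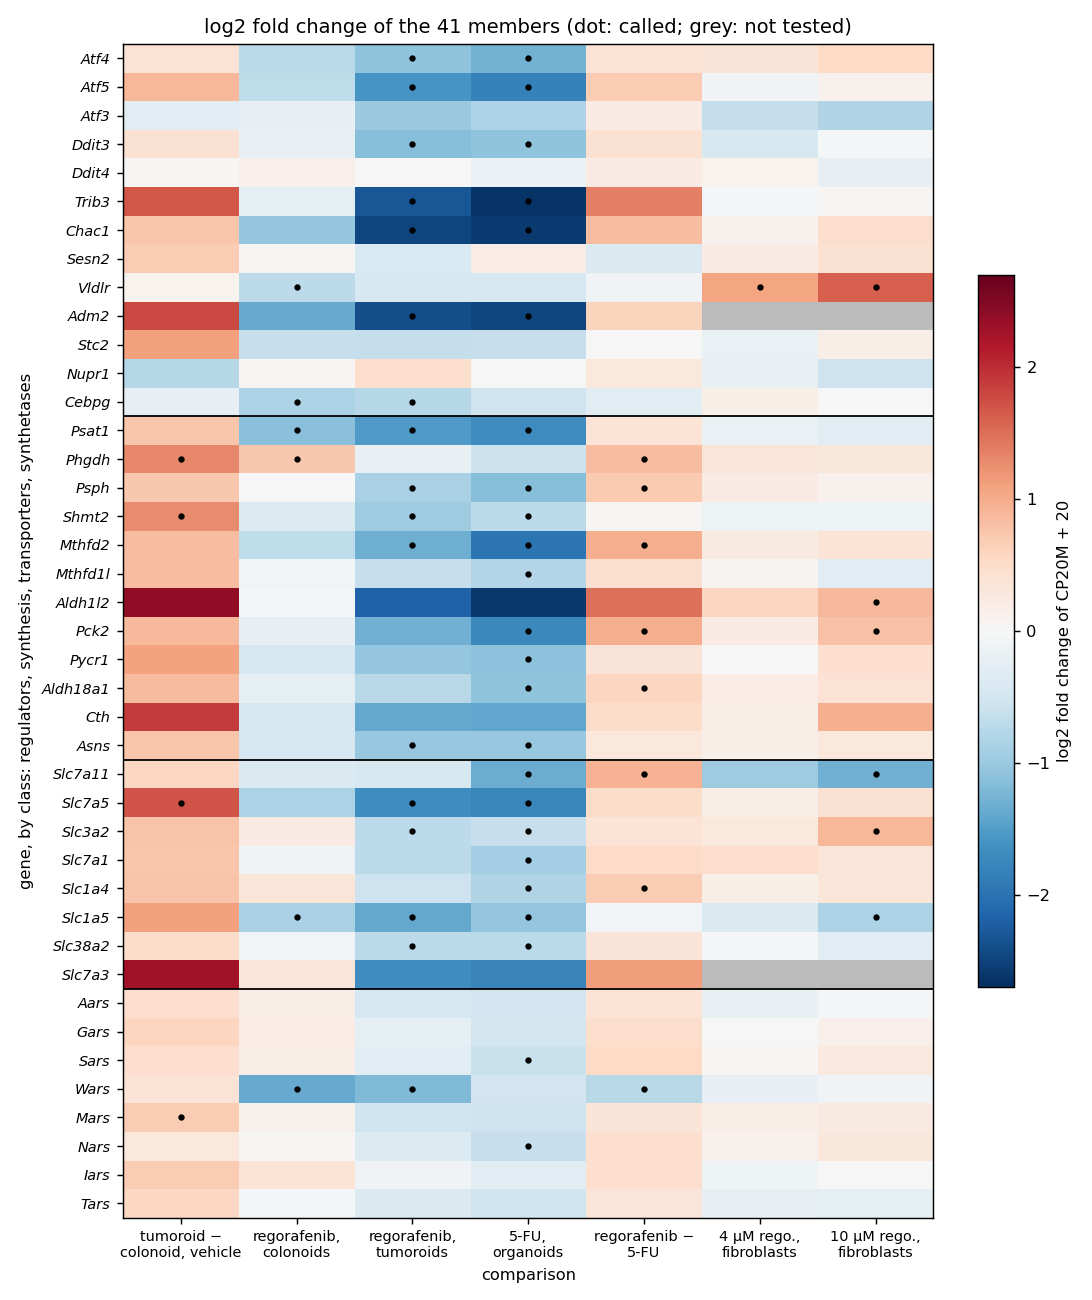
Log2 fold changes of CP20M + 20 of the 41 members (rows, by class) in 7 comparisons (columns), red higher and blue lower, with a dot where the member was called and grey where it was not tested. Columns for regorafenib in tumoroids and for 5-FU are mostly blue, and those for fibroblasts hold few dots, with Vldlr dotted in both (1.06 and 1.62).

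In fibroblasts the same programme was compared between 10 µM regorafenib (3 libraries) and vehicle (4 libraries). There 4 of 39 members tested rose and 2 fell, while 7.33% of all genes were called, 3.25% higher and 4.09% lower. Vldlr, the enzymes Aldh1l2 and Pck2 and the transporter chain Slc3a2 rose, and the transporters Slc7a11 and Slc1a5 fell. The median over the members was 0.18, against -0.04 over all genes.

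Vldlr was at 682, 744, 662 and 803 CP20M with vehicle, 2072, 1456, 1383 and 1282 CP20M at 4 µM and 2567, 2109 and 2107 CP20M at 10 µM (1.62 ± 0.15 (SE), limma adjusted p = 4.61e-06), a 3.07-fold difference. Slc3a2 was at 2563, 2514, 2585 and 1905 CP20M with vehicle and 4672, 4350 and 4217 CP20M at 10 µM (0.89 ± 0.14 (SE), limma adjusted p = 0.000543). Aldh1l2 was at 978, 635, 752 and 1101 CP20M and 1773, 1291 and 1680 CP20M (0.87 ± 0.22 (SE), limma adjusted p = 0.0148), and Pck2 at 1069, 941, 979 and 960 CP20M and 1676, 1881 and 1635 CP20M (0.80 ± 0.11 (SE), limma adjusted p = 0.000248). For these 4 every treated library was above every vehicle library. Slc7a11 was at 514, 916, 754 and 470 CP20M with vehicle and 232, 208 and 316 CP20M at 10 µM (-1.30 ± 0.26 (SE), limma adjusted p = 0.00377), and Slc1a5 at 206, 225, 277 and 277 CP20M and 139, 108 and 136 CP20M (-0.85 ± 0.19 (SE), limma adjusted p = 0.0077). Slc3a2 and Slc7a11, the heavy and light chains of the cystine and glutamate exchanger, thus moved in opposite directions.

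**Figure D5:**
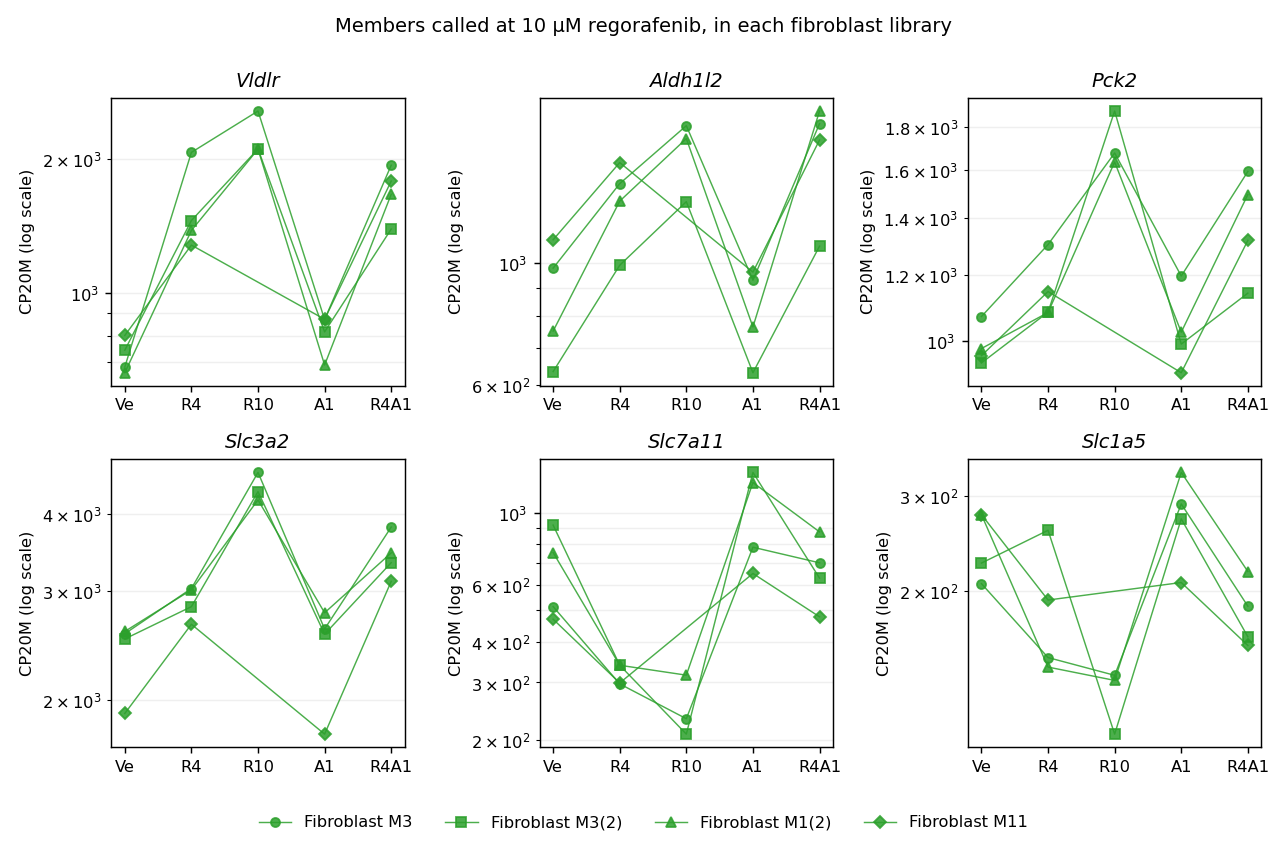
CP20M (log axis) of the 6 members called at 10 µM regorafenib in each fibroblast library, with lines that join the libraries of 1 cell line over vehicle (Ve), 4 µM and 10 µM regorafenib (R4, R10), autogramin-2 (A1) and both (R4A1). M11 has no library at 10 µM, and at R10 Vldlr lies at 2107 to 2567 CP20M and Slc7a11 at 208 to 316 CP20M.

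Atf4 was at 2730, 2881, 2528 and 2117 CP20M with vehicle, 3220, 3691, 3514 and 2739 CP20M at 4 µM and 3799, 3973 and 3390 CP20M at 10 µM. At 10 µM it passed the adjusted p but at 0.54 not the minimum fold (SE 0.16, limma adjusted p = 0.0284), and it had no overlap with vehicle. Ddit3 was at 1475, 1441, 1458 and 838 CP20M and 1255, 1224 and 1223 CP20M (-0.04 ± 0.22 (SE), limma adjusted p = 0.93). Line M11, the last vehicle value, has no library at 10 µM, and its vehicle value was the lowest for Atf4, Ddit3 and Slc3a2. In this unpaired test it counts with vehicle only, which shifts their log2 fold changes upward. Within each of the other lines Ddit3 was lower at 10 µM than with vehicle, and Atf4 and Slc3a2 were higher. Libraries of 14 members were wholly higher at 10 µM, against 12.2% of all genes. Of the 8 tRNA synthetases none was called, with values from -0.25 (Tars) to 0.31 (Nars). With the block Nupr1 (-0.72, adjusted p = 5.23e-05) and Cth (0.90, adjusted p = 0.0215; both limma) were added. Without line M3, 3 members were called. Proliferation markers were at 3809 to 6090 CP20M with vehicle, 1574 to 5355 CP20M at 4 µM and 893 to 1116 CP20M at 10 µM, and leukocyte markers at 1062 to 6022 CP20M with vehicle and 587 to 611 CP20M at 10 µM. The fibroblast markers summed to 128482 to 185056 and 128407 to 135503 CP20M, with 2 of 7 called lower (Pdgfra -3.03, Col3a1 -1.43). The part of these markers in the members' changes was not tested.

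At 4 µM regorafenib, which shares the vehicle libraries, only Vldlr was called in fibroblasts (1.06 ± 0.14 (SE), limma adjusted p = 0.000491), against 1.02% of all genes called, 0.671% higher and 0.354% lower. It was higher in 4 of 4 lines. With the block Aldh1l2 (0.59, adjusted p = 0.000104), Atf3 (-0.64, adjusted p = 0.00246) and Slc7a11 (-0.97, adjusted p = 0.000235; all limma) were added, each in the same direction in 4 of 4 lines. Without line M11, 2 members were called. Endothelial markers were higher at 4 µM in 4 of 4 lines, at 1104, 9358, 1849 and 2476 CP20M with vehicle and 1806, 25153, 5808 and 7196 CP20M at 4 µM. Leukocyte markers were lower in 4 of 4 lines, at 2494, 1062, 1763 and 6022 CP20M and 1141, 639, 920 and 2042 CP20M, and the part of either list was not tested. Libraries of 4 members were wholly higher and of 1 wholly lower, against 2.86% and 3.55% of all genes. Between 10 µM and 4 µM no member was called by limma or edgeR (0.145% of all genes in limma), although 5 had an unadjusted p under 0.05; Pck2 passed the adjusted p (limma, 0.0359) with 0.58, just under the minimum fold.

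With autogramin-2 alone no member was called by limma or edgeR (0% of all genes in limma), 1 member (Slc7a11) had an unadjusted p under 0.05, and values ran from -0.37 (Chac1) to 0.57 (Slc7a11). Slc7a11 was at 514, 916, 754 and 470 CP20M with vehicle and 783, 1331, 1239 and 650 CP20M with autogramin-2, higher in 4 of 4 lines, and was not called with the block either (0.57, adjusted p = 0.437; limma). Atf4 was at 2933, 2846, 2557 and 1857 CP20M with autogramin-2 (-0.02 ± 0.14 (SE), limma adjusted p = 1), and Ddit3 at 1360, 1371, 1592 and 873 CP20M (0.00 ± 0.20 (SE), limma adjusted p = 1). Added to 4 µM regorafenib, autogramin-2 again gave no call by limma or edgeR (0.00906% of all genes in limma), and 4 members had an unadjusted p under 0.05. Slc7a11 was at 297, 339, 339 and 299 CP20M with regorafenib alone and 701, 629, 873 and 478 CP20M with both drugs, with no overlap and higher in 4 of 4 lines (1.00 ± 0.24 (SE), limma adjusted p = 0.653); with the block it was called (1.00, adjusted p = 0.00495; limma). It and Slc3a2 were the 2 members wholly higher with both drugs, against 1.01% of all genes. Leukocyte markers were at 639 to 2042 CP20M with regorafenib alone and 449 to 716 CP20M with both drugs, and their part was not tested.

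Other genes of the stress response were read from lists of the same kind. Of 11 tested further ATF4 or CHOP targets in organoids, 3 rose and 3 fell with regorafenib, where 7.65% of all genes were called higher and 9.2% lower. Gdf15 (1.40), a secreted stress hormone, Gadd45a (1.36), a growth arrest gene, and the death receptor Tnfrsf10b (0.72) rose, and the glycine transporter Slc6a9 (-1.19), the translation repressor Eif4ebp1 (-0.97) and Jdp2 (-0.92) fell. With 5-FU 6 of the 11 fell, led by Gpt2 (-1.42), Slc6a9 (-1.33), Nfil3 (-1.31) and Eif4ebp1 (-1.27), and none rose, beside 0.822% of all genes called lower. In fibroblasts at 10 µM regorafenib 1 of 11 was called, Gdf15 (1.37), beside 3.25% of all genes called higher.

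Upstream of ATF4, the list of 11 eIF2 alpha kinases, phosphatases and related genes had 2 that rose with regorafenib in organoids, the kinase Eif2ak3 (PERK, 0.93) and Impact (0.79), an inhibitor of the kinase GCN2, and 1 that fell, the mitochondrial protease Oma1 (-0.88). With 5-FU and in fibroblasts at 10 µM none of the 11 was called by limma. Of 5 eIF2B subunits Eif2b1 fell with regorafenib (-0.89). Over all genes 7.65% were called higher and 9.2% lower with regorafenib. Of 14 chaperones and folding factors of the ATF6 and XBP1 arms, 1 fell with regorafenib, Herpud1 (-0.87), and none rose, with a list median of 0.13. With 5-FU Herpud1 again was the 1 called (-0.96), beside a list median of -0.14.

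Of 12 other cytosolic synthetases 1 fell with regorafenib in organoids, Yars (-0.70), and 4 with 5-FU, Yars (-1.04), Lars (-0.64), Eprs (-0.63) and Cars (-0.61), beside 9.2% and 0.822% of all genes called lower. Of 17 mitochondrial synthetases 1 fell with regorafenib, Sars2 (-0.61), and none with 5-FU. Of 7 tested cytosolic folate and glycine cleavage enzymes 1 fell with regorafenib, thymidylate synthase Tyms (-1.10), and none with 5-FU, where Tyms was at -0.57. None of 9 tested other amino acid transporters was called for either drug by limma, with list medians of 0.21 and 0.11.

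At a stricter adjusted p, under 0.001 with the same minimum fold, 7 members were called for regorafenib over both genotypes (6.8% of all genes) and 1 in colonoids (2.47%). None was called in tumoroids (0.519% of all genes), for 5-FU (0.0778%), between regorafenib and 5-FU (1.19%) or between genotypes (0.0173%). In fibroblasts at 10 µM regorafenib 3 members were (1.5%).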

How the data were processed

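RNA of 24 organoid and 19 fibroblast libraries was sequenced. Per the labels and the study's methods, reads were trimmed with Trimmomatic 0.36, aligned to GRCm38 with STAR 2.5.3a and counted with HTSeq 0.9.1; the strand setting was not given in the sources used here, and the labels and the methods name different library kits. The signal values deposited by the authors, CP20M, are reads per gene scaled to 20000000 per library and rounded up. The study describes the unit as per kilobase, but the values carry no length. In all but 3 libraries at least 99.6% of values were exactly a whole number of reads times the worth of 1 read, rounded up, which gave the depths. In these 3 tumoroid libraries 1 read is worth under 1 CP20M, so every value matches and the depth is approximate.

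log2(CP20M + 20) was fitted with limma 3.58.1 (R 4.3.3), 1 coefficient per group and all groups of a table together, for genes with at least 200 CP20M in 2 libraries. P-values were adjusted by Benjamini-Hochberg over all genes tested. Alternatives were the line as a block, edgeR 4.0.16 on the recovered reads, other pseudocounts, filters, scalings and thresholds, and leaving out each line. The scripts were tested on simulated data.

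The members and lists were chosen with earlier results of these data known. Values are given for Atf4, Ddit3 and, per class, the called members with the largest changes (up to 4 for regorafenib, 3 for 5-FU), and for every member called between genotypes. Libraries of a line come from the same mouse. Deviations from the group means correlated at 0.50 on average (0.012 to 0.885) within organoid lines and 0.72 (0.339 to 0.946) within fibroblast lines. Between lines the averages were -0.25 and -0.23. Taking deviations from the group means itself pushes these under 0, so they are no yardstick for the values within lines. No libraries were duplicates. Floors cover counting error only.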

Additional observations from a re-analysis of the deposited data

Results flagged for a closer look

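In fibroblasts, 9 of 156 checked groups of 4 libraries held a value far from the other 3, where chance gives about 1 in 20. Of these, 8 were in line M11. With vehicle its Ddit3 was at 838 CP20M against 1441 to 1475 in the other lines, its Ddit4 at 1421 against 624 to 734, its Psph at 449 against 605 to 633 and its Slc3a2 at 1905 against 2514 to 2585. With 4 µM regorafenib its Phgdh was at 2907 CP20M against 3818 to 3991. With autogramin-2 its Slc1a4 was at 738 CP20M against 996 to 1025 and its Tars at 1616 against 2435 to 2466, and with both drugs its Ddit4 was at 1426 against 480 to 504. In line M3(2), Slc38a2 was at 9236 CP20M with 4 µM regorafenib, against 5144 to 5680 in the others. M11 has no library at 10 µM, so it enters that comparison only through vehicle.

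For 4 members every colonoid line moved one way and every tumoroid line the other, with both regorafenib doses averaged on the log2 scale. The share of all genes with this pattern was not taken, so the count is not a result about the members. Some moves were small. In colonoid M1, Slc1a4 was at 961 CP20M with vehicle and 907 and 1025 CP20M at 4 and 8 µM. Phgdh was at 2790 CP20M there, and at 2130 and 3903 CP20M. The tumoroid minus colonoid difference in the log2 response to regorafenib was -0.93 for Phgdh, -0.89 for Slc1a4 and -0.45 for Iars (limma adjusted p = 0.997 each), and that to 5-FU was -0.78 for Sesn2 (limma adjusted p = 1.00). None of these differences passed the test.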

How the results depend on the processing

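No called member changed direction under the alternatives tried: of 1541 alternative values of called members, 1201 kept the call and 340 lost it. The number of members called depended more on the setting, and the cause was not tested. For most settings the share of all genes called is not given beside these counts. They show how far the calls rest on a setting and are not a result about the members. At an FDR of 0.001 it was 7 for regorafenib over both genotypes, 1 in colonoids, 0 in tumoroids, 0 for 5-FU, 0 for regorafenib against 5-FU, 0 between genotypes and 3 in fibroblasts at 10 µM. With no filter it was 8 in tumoroids, 14 for 5-FU, 4 for regorafenib against 5-FU and 2 between genotypes. With the compared groups alone it was 1 in colonoids and 0 between genotypes. With no minimum fold it was 14 for regorafenib against 5-FU and 1 for 10 against 4 µM in fibroblasts, as it was there with a pseudocount of 5. Between 8 and 4 µM it was 1 with median-ratio scaling, 1 in edgeR and 1 without the low-depth library, whose removal gave 10 between genotypes. edgeR gave 2 in fibroblasts at 4 µM.

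With the line as a replicate block, limma called 2 members between 8 and 4 µM, 4 in fibroblasts at 4 µM and 1 for autogramin-2 added to regorafenib. With the block in edgeR these were 2, 4 and 1, beside 27 in tumoroids, 16 for regorafenib against 5-FU and 2 for 10 against 4 µM in fibroblasts. The block without the low-depth library gave 26 in tumoroids, 14 for regorafenib against 5-FU and 4 between 8 and 4 µM. The limma block lost no call. No paired analysis was possible for vehicle tumoroids against colonoids because their lines come from different mice.

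Leaving out each line in turn gave 10 to 21 members for regorafenib over both genotypes, 3 to 8 in colonoids, 1 to 22 in tumoroids, 0 to 1 between doses, 4 to 25 for 5-FU, 2 to 6 for regorafenib against 5-FU, 0 to 5 between genotypes, 1 to 2 in fibroblasts at 4 µM and 3 to 8 at 10 µM. TMM scaling moved the split of all genes called higher, from 885 of 1949 to 1095 of 1912 for regorafenib over both genotypes, from 656 of 1685 to 950 of 1715 in colonoids, from 177 of 272 to 213 of 274 for 5-FU and from 50 of 98 to 33 of 92 between doses (49 of 144 with median ratios). In colonoids it moved the median of all genes from -0.15 to -0.02. At 512600 reads, the low-depth library limits what can be said of members under 117 CP20M, the worth of 3 reads.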
